A study of Homo sapiens with 8 samples.

Results

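Chromosome 9 was described across both lines of the study, PC9R and PC9, from all peaks called on it (hg19) and from its genes with at least 10 RNA counts over all 4 libraries. This gave 2266 of 59600 DNase hypersensitive sites (DHS) in PC9R and 324 of 19648 in PC9. It gave 5282 of 117861 H3K4me2 peaks in PC9R and 3484 of 85246 in PC9. Of 14693 genes with at least 10 counts, 572 lay on chromosome 9, and 481 of these passed the filter on low counts and were tested. The members were chosen by position and count, and the chromosome was selected on its peak numbers and RNA differences between the lines in these same data, so the levels of its segments are given as a description and carry no test.

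The human lung adenocarcinoma line PC9 carries a mutant, active EGFR and responds to gefitinib, which inhibits that receptor's kinase. The labels' protocols give PC9R as PC9 cells put under gefitinib selection for 1 to 2 weeks. Passages were 8 to 12 and the medium DMEM for both lines. PC9R is thus a selected population, and the labels name gefitinib for it alone, so drug and line cannot be told apart. Each line had 2 RNA-seq libraries, 1 DHS library and 1 H3K4me2 ChIP-seq library. The labels do not state whether the 2 RNA libraries of a line are separate cultures. P-values here therefore reflect the spread between these libraries alone, which may be technical.

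The RNA libraries held 32502455 and 16715426 counts in PC9R, and 32515891 and 16013058 counts in PC9. All 8 epithelial markers checked were detected in every library, with summed levels of 11500 to 20100 CPM (counts scaled to the same library total) in PC9R and 11100 to 25200 CPM in PC9. Leukocyte markers summed to at most 0.37 CPM in PC9R and 0.251 CPM in PC9, with PTPRC at 0 in both PC9R libraries. Endothelial markers summed to 20.1 to 46.8 CPM in PC9R and 12.7 to 22.4 CPM in PC9, where KDR was at 0. Fibroblast markers summed to 14.2 to 65.2 CPM in PC9R and 6.34 to 24.4 CPM in PC9, and in each library either COL3A1 or COL1A2 was at 0. VIM and CDH2 together gave 14.1 to 32.4 CPM in PC9R and 14.2 to 17.2 CPM in PC9. The part of these markers in the results below was not tested, and in such bulk samples fewer cells of a type and less RNA per cell cannot be told apart.

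As background, the short arm of chromosome 9 holds at 9p21 the cell cycle inhibitor genes CDKN2A and CDKN2B, next to MTAP and a cluster of type I interferon genes. This segment is often deleted in lung cancers. DHS mark open chromatin at promoters, enhancers and insulators, and H3K4me2 is a histone mark of promoters and enhancers. Genes along a chromosome share its copy number and its large chromatin domains, and each also has its own promoter and enhancers, so a gene can follow its neighbours or depart from them.

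Sequences of selected promoters and DHS peaks are shown first. The promoters are those of the 3 genes that passed the RNA test, UNC13B, TNC and TPM2, from 250 to 51 bases before the RefSeq start (RefSeq sequence of GRCh38.p14, matched without mismatch to hg19). Capitals mark matches, on either strand, to any of 4 short motifs. These were TGANTCA, bound by AP-1 factors, GGGCGG, bound by Sp factors, TATAAA, the TATA box, and GGAATG, bound by TEAD factors. The UNC13B stretch is chr9:35161756-35161955 on the plus strand, the TNC stretch chr9:117880487-117880686 on the minus strand, and the TPM2 stretch chr9:35690104-35690303 on the minus strand.
UNC13B: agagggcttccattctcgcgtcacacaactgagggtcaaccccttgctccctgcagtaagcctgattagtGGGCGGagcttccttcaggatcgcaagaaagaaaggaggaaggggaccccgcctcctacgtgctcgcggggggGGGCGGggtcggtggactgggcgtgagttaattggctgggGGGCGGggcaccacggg
TNC: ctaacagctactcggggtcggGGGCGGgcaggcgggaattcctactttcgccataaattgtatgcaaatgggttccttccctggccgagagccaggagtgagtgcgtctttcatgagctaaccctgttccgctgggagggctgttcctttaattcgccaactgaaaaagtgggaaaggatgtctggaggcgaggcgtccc
TPM2: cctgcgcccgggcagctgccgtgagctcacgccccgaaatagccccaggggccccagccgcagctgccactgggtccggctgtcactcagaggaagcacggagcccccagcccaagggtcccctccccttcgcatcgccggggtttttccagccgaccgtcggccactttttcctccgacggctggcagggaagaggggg

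The UNC13B stretch held 3 matches, and the TNC stretch 1 match, to the GC box GGGCGG, while none of the 4 motifs matched in the TPM2 stretch. Over 35115 RefSeq promoters, 35% of stretches of the same length and place held the GC box, 5.27% the AP-1 motif, 7.63% TATAAA and 9.71% the TEAD motif. A match is a description of letters and not evidence of binding.

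The DHS sequences are the central 200 bases, on the plus strand of hg19, of peaks found in 1 line only. The first 4 were found in PC9R only. They lie in PCSK5 (chr9:78795344-78795543), a proprotein convertase gene, in SPTLC1 (chr9:94877422-94877621), a subunit gene of the first enzyme of sphingolipid synthesis, just upstream of the start of SVEP1 (chr9:113342167-113342366) and just upstream of the start of TNC (chr9:117880743-117880942). The last 2 were found in PC9 only, beside the starts of PSMD5 (chr9:123605382-123605581), a proteasome assembly gene, and ZCCHC7 (chr9:37120253-37120452).
PCSK5: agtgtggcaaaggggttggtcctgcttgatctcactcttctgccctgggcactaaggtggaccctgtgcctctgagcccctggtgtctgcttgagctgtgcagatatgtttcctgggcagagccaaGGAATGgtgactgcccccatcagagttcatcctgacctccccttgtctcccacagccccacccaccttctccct
SPTLC1: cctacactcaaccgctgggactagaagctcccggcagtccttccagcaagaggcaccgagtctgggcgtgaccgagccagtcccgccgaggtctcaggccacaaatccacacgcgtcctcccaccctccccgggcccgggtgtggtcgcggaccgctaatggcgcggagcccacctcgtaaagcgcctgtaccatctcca
SVEP1: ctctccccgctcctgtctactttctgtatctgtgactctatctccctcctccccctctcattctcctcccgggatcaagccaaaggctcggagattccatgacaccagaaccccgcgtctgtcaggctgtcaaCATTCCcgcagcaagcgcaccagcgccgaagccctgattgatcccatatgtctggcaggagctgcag
TNC upstream: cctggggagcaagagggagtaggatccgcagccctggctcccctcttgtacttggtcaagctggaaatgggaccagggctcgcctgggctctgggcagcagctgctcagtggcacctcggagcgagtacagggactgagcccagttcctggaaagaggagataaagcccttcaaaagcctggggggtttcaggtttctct
PSMD5: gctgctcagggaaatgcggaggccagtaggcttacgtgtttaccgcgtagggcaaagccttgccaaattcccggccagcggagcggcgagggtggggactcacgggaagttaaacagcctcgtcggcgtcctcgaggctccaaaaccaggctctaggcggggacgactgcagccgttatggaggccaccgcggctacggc
ZCCHC7: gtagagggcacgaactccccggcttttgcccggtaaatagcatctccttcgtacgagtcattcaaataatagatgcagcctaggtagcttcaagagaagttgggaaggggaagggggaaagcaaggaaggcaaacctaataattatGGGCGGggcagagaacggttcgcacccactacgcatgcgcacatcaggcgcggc

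The PCSK5 and SVEP1 sequences each held 1 TEAD motif and the ZCCHC7 sequence 1 GC box. At PCSK5 the peak had the rank 13 by score among the 2266 PC9R peaks of the chromosome and also overlapped an H3K4me2 peak found in PC9R only. The SPTLC1 peak had the rank 10. A PC9R-only peak within the pseudogene FRG1JP, at chr9:68429245-68429559, had the rank 11 and overlapped no H3K4me2 peak. Among the 324 PC9 peaks, those at PSMD5 and ZCCHC7 had the ranks 11 and 13, and the next PC9-only peak, at MAN1B1 (chr9:139981182-139981543), the rank 14. The score is the authors' own and its scale is not stated, so ranks are given within each list.

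RNA of chromosome 9 genes was higher in PC9R along a 50 Mb stretch of the long arm, and the median of the remaining genes lay close to that of the genome. The stretch ran from 70 to 120 Mb and held 10 windows of 5 Mb. Its limits match the run of windows described as higher below, in these same data. The counts and shares inside it are therefore partly fixed by that choice. Of its 164 tested genes, 140 (85.4%) had a log2 fold change above 0 (PC9R minus PC9), against 57.1% of the 317 tested genes in the rest of the chromosome and 49.4% of the 12660 tested in the whole genome. The median log2 fold change was 0.56 in the stretch, with quartiles of 0.23 and 1.04. It was -0.01 from 0 to 70 Mb, 0.13 from 120 Mb to the end and -0.01 over all tested genes. Relative to all tested genes, the median of the stretch was 1.48-fold higher. The contrast depended on the libraries: without the first PC9 library the median was 0.43 in the stretch, 0.38 in the rest of the chromosome and 0.11 over all tested genes. Without the second PC9R library it was 0.31 in the stretch and 0.11 in the rest. Same-numbered libraries of the 2 lines deviated alike (correlation 0.819), so leaving out 1 library also leaves the lines unevenly matched. Within the pair of first libraries the median difference was 0.50, and within the pair of second libraries 0.55. In the rest of the chromosome these medians were 0.04 and 0.17.

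In the same stretch, 68 genes (41.5%) had both PC9R libraries above both PC9 libraries and 10 (6.10%) had them below. The same counts over the whole genome were 2137 (16.9%) and 1887 (14.9%), and in the rest of chromosome 9 they were 41 (12.9%) and 33 (10.4%). Genes with 1 accession and genes with several had alike medians in the stretch, 0.57 over 113 genes and 0.50 over 51. Among 23 chromosomes with at least 50 tested genes, chromosome 9 had the third highest median (0.25), after 20 (0.39) and 17 (0.31).

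A window was called higher where it had at least 5 tested genes, its median lay at least 0.25 above that of all tested genes, and its median was also above that of all tested genes within both pairs of libraries. All 10 windows from 70 to 120 Mb met this rule, with medians of 0.37 at 85 to 90 Mb to 1.08 at 80 to 85 Mb. Since the limits of the stretch match this run of windows, that all 10 met the rule is no separate support. Outside the stretch, the window at 25 to 30 Mb met it with 7 tested genes and a median of 0.45. The window at 20 to 25 Mb, with 11 tested genes and a median of -0.30, was the only lower one on the chromosome. Just outside the rule lay 5 to 10 Mb, at -0.23, on the low side and 125 to 130 Mb, at 0.21, on the high side. Over the genome, 104 of 523 windows (19.9%) were higher and 141 (27.0%) were lower, so higher windows also occurred elsewhere. The windows at 70, 90, 95 and 100 Mb met the rule under all 12 alternative fits. Those at 85, 105 and 110 Mb did not without the second PC9R library or without the first PC9 library, and those at 75 and 115 Mb did not without the first PC9 library. The window at 25 Mb did not without the second PC9R library, under a stricter count filter or over genes with 1 accession, and the window at 80 Mb, with 5 tested genes, did not under the last 2 of these. Leaving out single libraries also made other windows higher, at 0, 30, 120, 125, 135 and 140 Mb. The lower window at 20 Mb was lost without the first PC9R library and in the fit with a replicate block, which compares same-numbered libraries.

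**Figure D1:**
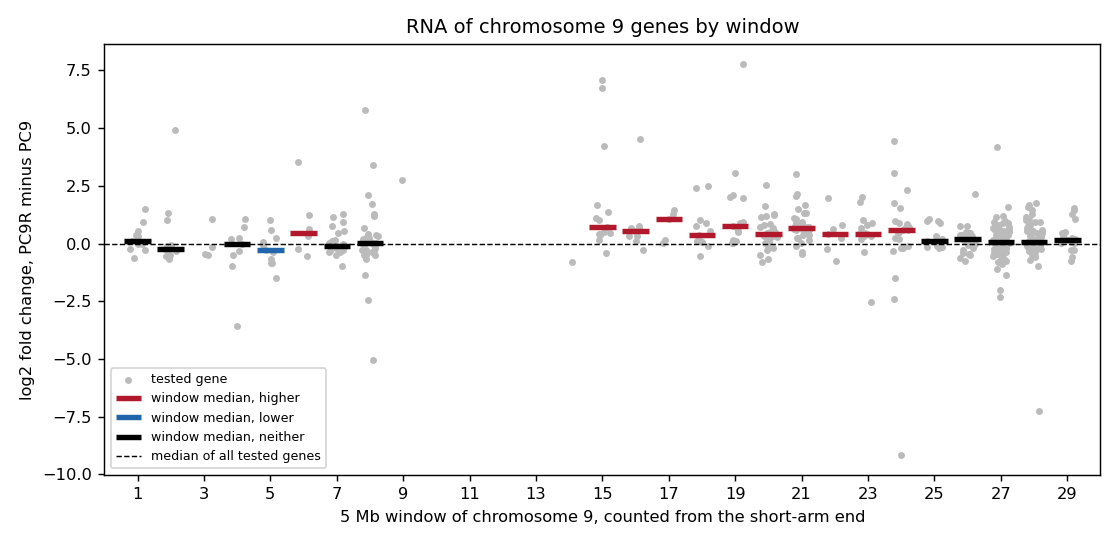
Log2 fold change (PC9R minus PC9) of each tested chromosome 9 gene (grey points, spread sideways at random) by 5 Mb window, with window medians as bars and the median of all tested genes as a dashed line. Windows 15 to 24, from 70 to 120 Mb, all have medians of 0.37 or more, and the lower window is window 5.

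None of the most abundant genes of these windows, up to 3 in each, passed the test. ANXA1, which encodes the phospholipid-binding annexin A1, had 1268 and 2774 CPM in PC9R and 958 and 1734 CPM in PC9. FAM120A had 759 and 821 CPM in PC9R, against 603 and 626 CPM in PC9, and the lines did not overlap. SLC44A1, a choline transporter gene, had 473 and 847 CPM in PC9R and 279.8 and 573.5 CPM in PC9, which overlapped. SMC5, a subunit gene of a DNA repair complex related to cohesin, had 144 and 392 CPM in PC9R and 77.6 and 189 CPM in PC9, which overlapped as well. ANP32B, a histone chaperone gene, had 633 and 950.5 CPM in PC9R, against 593 and 617 CPM in PC9, without overlap. SLC31A1, the copper importer gene, had 130.5 and 200.5 CPM in PC9R and 73.4 and 132 CPM in PC9. Library pairs often differed more than lines: CTNNAL1, which encodes a catenin-like protein, had 85.1 and 487 CPM in PC9R and 95.02 and 209.5 CPM in PC9.

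Other genes of the stretch differed more. ABCA1, which encodes a cholesterol exporter, had 144 and 193 CPM in PC9R, against 35.8 and 50.5 CPM in PC9, a log2 fold change of 1.97 ± 0.56 (SE, edgeR adjusted p = 0.268). DAPK1, a gene of a kinase linked to cell death, had 169.7 and 93.6 CPM in PC9R and 40.8 and 25.6 CPM in PC9 (1.99 ± 0.61, edgeR adjusted p = 0.324). Both genes had PC9R libraries wholly above those of PC9, and neither passed the threshold. TLE1, a corepressor of transcription, had 116 and 121 CPM in PC9R and 54.2 and 43.1 CPM in PC9. GNAQ, a G protein alpha subunit gene, had 148 and 199 CPM in PC9R and 53.2 and 111 CPM in PC9. PABIR1, which encodes an inhibitor of protein phosphatase 2A, had 38.9 and 50.8 CPM in PC9R and 14.3 and 20.6 CPM in PC9. For these 3 genes too the lines did not overlap.

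Some abundant genes of the stretch lay below its median. CKS2, a cofactor of cyclin-dependent kinases, had 78.7 and 187 CPM in PC9R and 106 and 131.5 CPM in PC9, which overlapped. RASEF, a Rab-type GTPase gene, had 69.1 and 139 CPM in PC9R and 66.3 and 131 CPM in PC9, a log2 fold change of 0.08. S1PR3, a receptor gene for sphingosine 1-phosphate, had 96.8 and 128 CPM in PC9R and 106 and 99.9 CPM in PC9, and PSAT1, of serine synthesis, had 4.04 and 30.1 CPM in PC9R and 9.91 and 20.3 CPM in PC9. KLF4, a zinc finger transcription factor, was lower in PC9R, with 73.1 and 99.1 CPM against 100.4 and 122 CPM in PC9 (-0.37 ± 0.54, edgeR adjusted p = 0.999). In the higher window at 25 to 30 Mb, PLAA had 70.03 and 166 CPM in PC9R and 112 and 231 CPM in PC9, while TUSC1 had 30.4 and 24.8 CPM in PC9R and 24.9 and 19.1 CPM in PC9.

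The DHS lists differed most in the same stretch. From 70 to 120 Mb there were 1775 peaks in PC9R and 142 in PC9, a ratio of 12.5 (exact 95% interval 10.5 to 14.9). The ratio was 2.39 from 0 to 70 Mb (153 and 64 peaks), 2.86 from 120 Mb to the end (338 and 118) and 3.03 over the genome. With 1 DHS library per line, these ratios have no replicate check, and the intervals cover counting error only. The part of peak calling depth and threshold in these ratios was not tested.

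By window the DHS ratio ran from 8.0 at 115 to 120 Mb to 67.5 at 80 to 85 Mb, where 135 peaks stood against 2. The other 13 windows of the chromosome with a ratio had values of 1.56 to 6.55. Over the genome, 68 of 573 windows (11.9%) had a ratio of at least 8.0, and 10 of the 68 were these. RNA was measured in 45 such windows on other chromosomes, of which 30 were higher and 2 lower, against 60 higher and 134 lower among the 447 other windows with a smaller ratio.

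In bins of 1 Mb the PC9R DHS numbers changed steeply at the proximal edge and less so at the distal edge. PC9R had 1 DHS peak at 70 to 71 Mb and 55 at 71 to 72 Mb, while PC9 had 0 and 4. H3K4me2 peaks rose there in both lines, from 1 to 68 in PC9R and from 1 to 31 in PC9. No list had a peak from 45 to 66 Mb, and the windows at 40 and 65 Mb held 1 tested gene each. The proximal edge is thus also where peaks of both lines become frequent, and does not mark a boundary of the difference between lines. From 71 to 120 Mb all 49 bins held between 7 and 59 PC9R peaks, with a median of 36.0, and between 0 and 11 PC9 peaks, with a median of 2.0. At the distal edge PC9R had 28 peaks at 119 to 120 Mb and 8 and 4 in the next bins, against 0, 1 and 0 in PC9. PC9R numbers were again higher beyond it, at 13, 28 and 19 peaks in the bins from 122 to 125 Mb, against 1, 6 and 3 in PC9.

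**Figure D2:**
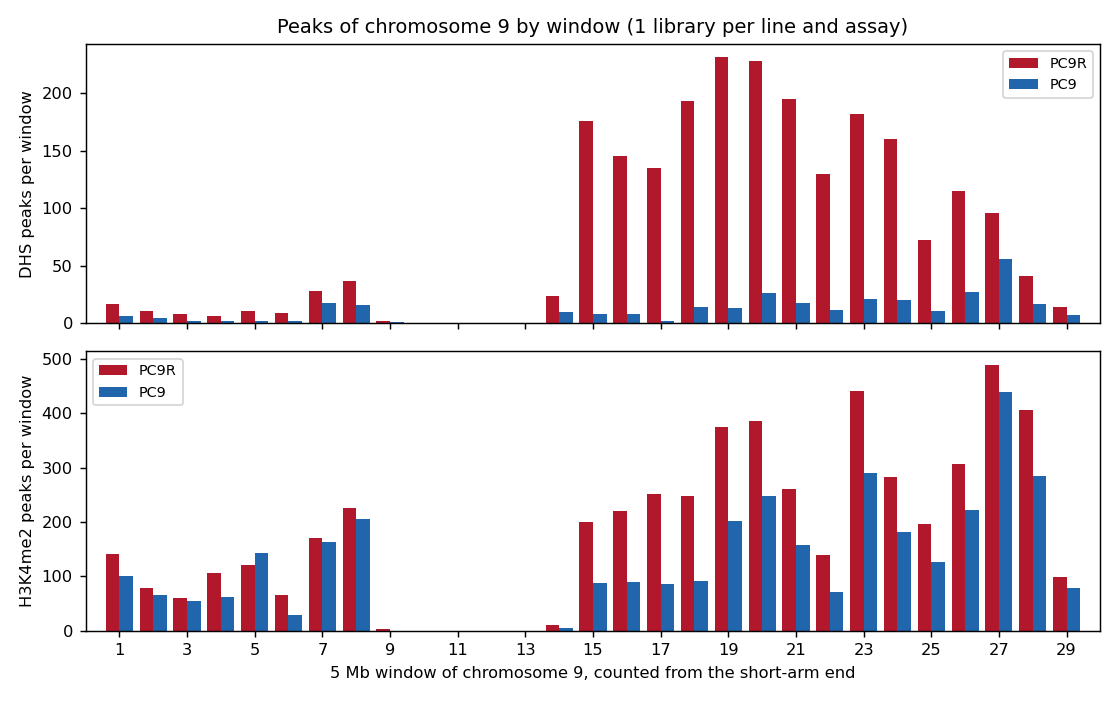
Number of DHS peaks (top) and H3K4me2 peaks (bottom) per 5 Mb window of chromosome 9 in PC9R and PC9, with 1 library per bar. PC9R has 130 to 231 DHS peaks in each of windows 15 to 24, where PC9 has 2 to 26.

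The added peaks of PC9R lay mostly away from promoters. In the stretch 11.5% of PC9R peaks and 56.3% of PC9 peaks lay within 1 kb of the start of a coding gene. Outside it these shares were 29.1% and 56.0%. Counted apart, peaks at promoters had a ratio of 2.55 in the stretch and peaks elsewhere a ratio of 25.3, against 1.40 and 4.35 in the rest of the chromosome. Only 88 of the 1775 PC9R peaks of the stretch (4.96%, exact 95% interval 4.0 to 6.07) overlapped a PC9 peak, while 91 of the 142 PC9 peaks (64.1%) overlapped a PC9R peak. Outside the stretch the shares were 14.9% of PC9R peaks and 39.6% of PC9 peaks.

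Fewer of the PC9R peaks of the stretch carried the histone mark. An H3K4me2 peak of the same line overlapped 21.6% of them (exact 95% interval 19.7 to 23.6), against 78.2% of PC9 peaks there (70.5 to 84.7). Outside the stretch the shares were 43.6% in PC9R and 75.3% in PC9, and over the genome 25.8% and 52.2%. The median GC content of the central 200 bases was 56.0% for the 1571 PC9R peaks of the stretch away from promoters and 54.2% for the 62 PC9 ones, against 40.0% for stretches of 200 bases taken every 5 kb across it.

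Letters of known motifs in the peaks away from promoters were set side by side. The AP-1 motif TGANTCA was held by 4.39% of PC9R peaks and 9.68% of PC9 peaks in the stretch, and by 4.02% and 11.2% outside it. GGAATG was held by 9.80% of PC9R and 16.1% of PC9 peaks in the stretch, and by 6.61% and 18.8% outside. The PC9 shares rest on 62 and 80 peaks. Stretches of the same length taken every 5 kb from 70 to 120 Mb held these motifs in 6.29% and 11.2% of cases.

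**Figure D3:**
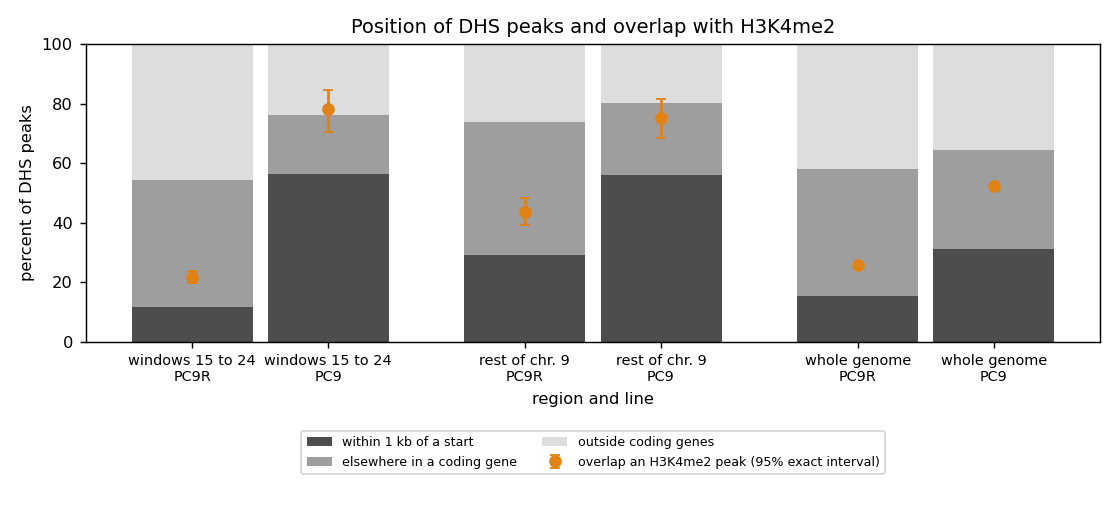
Share of DHS peaks within 1 kb of the start of a coding gene, elsewhere in a coding gene and outside coding genes (stacked bars, percent), and share overlapping an H3K4me2 peak of the same line (orange points with exact 95% intervals), for windows 15 to 24 (70 to 120 Mb), the rest of chromosome 9 and the whole genome. Within each region PC9R has a smaller promoter share and a smaller H3K4me2 share than PC9.

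H3K4me2 peaks showed the same stretch with a smaller ratio. There were 2803 peaks in PC9R and 1503 in PC9 from 70 to 120 Mb, a ratio of 1.86 (exact 95% interval 1.75 to 1.99), against 1.25 in the rest of the chromosome and 1.38 over the genome. PC9R peaks were narrower, with a median of 375 bp against 481 bp in PC9 there. By covered length the ratio was 1.19 in the stretch (1364 kb in PC9R and 1150 kb in PC9) and 0.762 outside it, so outside the stretch more peaks covered less sequence. The largest window ratio, 2.92, lay at 80 to 85 Mb, with 251 peaks in PC9R and 86 in PC9. Of PC9R peaks 45.4% were shared with PC9 in the stretch and 67.6% outside, while of PC9 peaks 74.7% and 71.8% were shared with PC9R.

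The highest-scored H3K4me2 peaks found in 1 line only were placed as follows. In PC9R they were at chr9:82185551-82186481 beside the start of TLE4, a Groucho-family corepressor gene, inside DAPK1 at chr9:90161131-90161722 and at the PCSK5 site shown above. In PC9 they were at the start of FAM78A (chr9:134152255-134153327), near CYSRT1 (chr9:140118104-140118915) and in RNF208 (chr9:140115649-140116538). The widest peak of PC9R, 2223 bp, lay in GABBR2, and that of PC9, 8015 bp, at PTCH1, the Hedgehog receptor gene.

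RNA in the stretch was shifted with and without a promoter DHS peak. Genes with a peak in both lines, 61 of them tested, had a median log2 fold change of 0.49, against 0.49 over 54 with a peak in PC9R only and 0.63 over 48 with a peak in neither line. In the rest of the chromosome the medians of the same classes were -0.11, 0.12 and 0.13. A PC9R DHS peak lay within the gene for 162 of the 194 genes of the stretch with at least 10 counts, and a PC9 peak for 53. In the rest of the chromosome these numbers were 140 and 80 of 378 genes. They follow in part from the unlike lengths of the 2 DHS lists.

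Against this background 3 chromosome 9 genes passed the test across all genes (edgeR adjusted p under 0.05), 1 higher and 2 lower in PC9R. Of the 12660 genes tested in all, 32 (0.253%) passed, 24 (0.19%) of them higher and 8 (0.0632%) lower. UNC13B, which primes vesicles for fusion with the cell membrane, rose in PC9R. It had 22.2 and 24.8 CPM in PC9R, from 780 and 417 counts, and 0.376 and 0.467 CPM in PC9, from 12 and 7 counts. The log2 fold change was 5.80 ± 0.735 (SE, n = 2 each, edgeR adjusted p = 0.0362). UNC13B spans chr9:35161989-35405335, in a window with a median of 0.03.

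TNC, which encodes the matrix glycoprotein tenascin-C, was close to absent in PC9R. It had 0.171 and 0.476 CPM in PC9R, from 6 and 8 counts, and 137 and 215 CPM in PC9, from 4366 and 3221 counts. It fell by 9.17 ± 0.90 on the log2 scale (edgeR adjusted p = 0.0359). TNC spans chr9:117781854-117880486 within the higher stretch. In the same window ATP6V1G1, a proton pump subunit gene, had 285 and 368 CPM in PC9R and 179 and 259.5 CPM in PC9.

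TPM2, which encodes the actin-binding beta-tropomyosin, had 1.77 and 1.61 CPM in PC9R and 65.5 and 44.9 CPM in PC9. It fell by 5.03 ± 0.68 on the log2 scale (edgeR adjusted p = 0.0388). TPM2 has 2 accessions, whose counts were summed, and how reads common to both were counted is not stated. Its neighbour TLN1, the gene of the cytoskeletal linker talin, had 441 and 199 CPM in PC9R and 628 and 255 CPM in PC9, which overlapped. Just outside the threshold lay ALDH1A1, with an edgeR adjusted p of 0.0509. ALDH1A1 was called under 11 of 12 alternatives, all but upper quartile scaling, and GLDC under 8. The number of calls on the chromosome depended on the libraries and the settings, as did the number over all genes. It was 0 under upper quartile scaling, and UNC13B, TNC and TPM2 were called under each of the other 11 alternatives except the fit on genes with 1 accession, which does not hold TPM2.

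Chromatin marks at these promoters did not all differ in the direction of the RNA. At UNC13B, H3K4me2 covered the start in both lines. The peak over the start was 1059 bp wide in PC9R and 1076 bp in PC9, and a DHS peak of 174 bp stood downstream of the start in PC9R only. By score that H3K4me2 peak ranked 123 among the 5282 of PC9R on the chromosome, and 1439 among the 3484 of PC9. At TNC, PC9R had 2 DHS peaks within 1 kb of the start, of 269 and 439 bp, and PC9 had none. The H3K4me2 peak over the TNC start was 929 bp wide in PC9R, against 2376 bp in PC9, with the ranks 886 of 5282 and 41 of 3484. PC9R H3K4me2 peaks were narrower over the whole genome as well, with a median of 395 bp against 546 bp in PC9. At TPM2 neither line had a DHS peak. There the PC9 H3K4me2 peak spanned 3680 bp across the start, while PC9R had peaks of 1173 bp upstream and 278 bp downstream of it.

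Genes were said to depart from their segment where the log2 fold change differed by at least 2 from the median of the other tested genes of the window, by at least 1 in the same direction within each pair of libraries, with a mean of at least 10 CPM in the higher line. Of 28 genes that differed by at least 2, 11 met this rule, 5 above and 6 below their window. UNC13B, TNC and TPM2 are among them, and the other 8 did not pass the test across all genes in the analysis reported. With DESeq2, which called 381 of the 12660 genes tested, all 8 were called. In none of the 11 did the lines overlap, which the rule largely fixes.

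Above their window were ALDH1A1, GLDC, MOB3B and GABBR2 beside UNC13B. ALDH1A1, which makes retinoic acid from retinaldehyde, had 541 and 296 CPM in PC9R and 23.96 and 11.9 CPM in PC9, with a log2 fold change of 4.54 ± 0.69. Its annexin neighbour ANXA1 had a log2 fold change of 0.59. The ALDH1A1 gene held 13 H3K4me2 peaks in PC9R and 2 in PC9. GLDC, the glycine decarboxylase of the glycine cleavage system, lies at chr9:6532467-6645729 in the 5 to 10 Mb window and had 34.6 and 13.5 CPM in PC9R and 0.784 and 0.801 CPM in PC9 (4.92 ± 0.80, edgeR adjusted p = 0.0606). H3K4me2 peaks in the GLDC gene numbered 7 in PC9R and 8 in PC9.

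MOB3B, of the MOB kinase activator family, lies at chr9:27325207-27529812 and had 14.35 and 20.8 CPM in PC9R and 1.19 and 1.87 CPM in PC9 (3.53 ± 0.69, edgeR adjusted p = 0.0906). The gene held 15 H3K4me2 peaks in PC9R and 2 in PC9, with no DHS peak in either line. GABBR2, a subunit gene of the GABA-B receptor, had 80.05 and 33.2 CPM in PC9R and 10.7 and 3.20 CPM in PC9 (3.02 ± 0.81, edgeR adjusted p = 0.234). It held 26 DHS peaks in PC9R and 1 in PC9, and 48 and 20 H3K4me2 peaks. GABBR2 lies in the stretch, where DHS peaks away from promoters had a ratio of 25.3 as a whole.

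Below their window were NUP214, CA9, SVEP1 and PAPPA beside TNC and TPM2. NUP214, a nuclear pore gene at chr9:134000960-134110050, had 185 and 195 CPM in PC9R, against 891 and 623 CPM in PC9 (-1.99 ± 0.51, edgeR adjusted p = 0.197). FUBP3 and PRRC2B, in the same window and chosen after their values were seen, had log2 fold changes of 0.04 and 0.01. The 75 tested genes of that window ranged from -2.325 to 4.166, with a median of 0.05. DHS peaks stood at the NUP214 start in both lines. CA9, a membrane carbonic anhydrase gene known for its induction by hypoxia, lies beside TPM2 and had 13.6 and 6.72 CPM in PC9R and 78.7 and 33.2 CPM in PC9 (-2.46 ± 0.71, edgeR adjusted p = 0.282).

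SVEP1, which encodes an adhesion protein of the matrix, had 6.66 and 7.67 CPM in PC9R and 47.8 and 33.8 CPM in PC9 (-2.51 ± 0.61, edgeR adjusted p = 0.176). DHS peaks within 1 kb of the SVEP1 start, including the one shown above, were found in PC9R only, and the H3K4me2 peak over the start was narrower in PC9R, 1367 bp, than in PC9, 2999 bp. By score that H3K4me2 peak had the rank 39 of 5282 in PC9R and 176 of 3484 in PC9. PAPPA, a protease that frees insulin-like growth factors from their binding proteins, had 3.02 and 9.33 CPM in PC9R and 35.2 and 29.6 CPM in PC9 (-2.40 ± 0.73, edgeR adjusted p = 0.313). PAPPA held 8 DHS peaks in PC9R and none in PC9, and 17 and 5 H3K4me2 peaks. SVEP1, TNC and PAPPA lie within the higher stretch, at 113 to 119 Mb, where DHS peaks found in PC9R only were common at promoters and elsewhere.

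**Figure D4:**
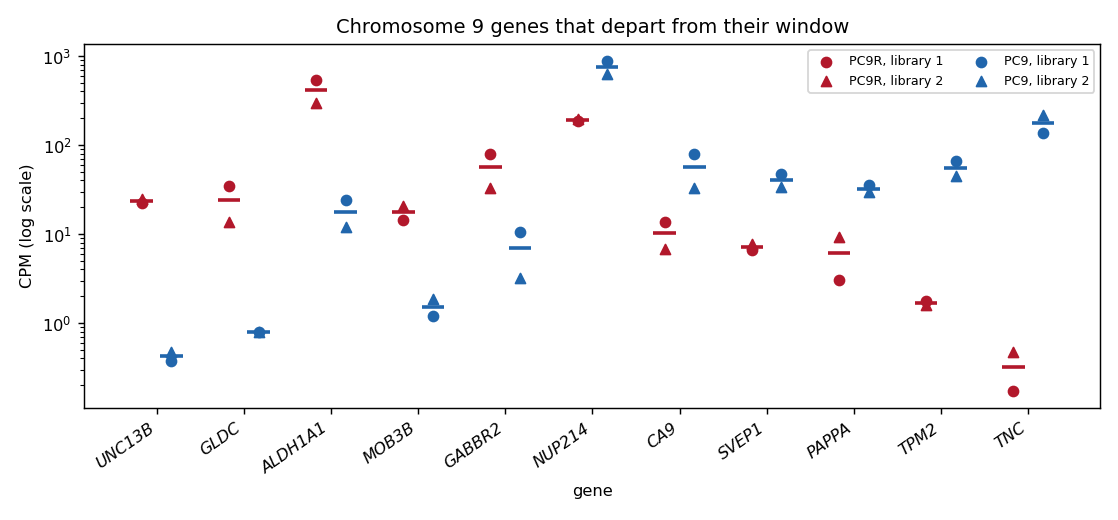
RNA level (CPM, log axis) in each library of the 11 genes that depart from their window, ordered by the size of the departure, with PC9R in red and PC9 in blue, circles for the first and triangles for the second library, and bars for means. UNC13B stands at 22.2 and 24.8 CPM in PC9R and below 0.5 CPM in PC9, and TNC the other way round.

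Of the other 17 genes that differed by at least 2 from their window, 4 were chosen after their values were seen because 1 line was at or near 0. DIRAS2, a Ras-type GTPase gene in the stretch, had 346 counts over both PC9R libraries and 1 over both PC9 libraries, a ratio of 312 (exact 95% interval 55.7 to 12370, counting error only). PGM5, at the proximal edge of the stretch, had 40 counts in PC9R and none in PC9, at least 12.0-fold higher by a floor of 3 counts over the group. APBA1, an adaptor gene of synapses, had 426 and 92 counts in PC9R and 4 and 0 in PC9. NTNG2, a netrin family gene at 135 Mb, had 3 counts over both PC9R libraries and 496 in PC9, a ratio of 183 (62.3 to 892) in the other direction.

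The 9p21 segment, taken as the windows from 20 to 35 Mb, did not as a whole share the shift of the long arm. These windows also reach past 9p21 into the next band. Of their 42 tested genes 19 (45.2%) were above 0, the median log2 fold change was -0.06, and none passed the test. The windows differed, with medians of -0.30 at 20 to 25 Mb, 0.45 at 25 to 30 Mb and -0.10 at 30 to 35 Mb. An unadjusted p under 0.05 was reached by 2 of them (4.76%), against 7.28% of all genes tested. Both PC9R libraries were above both PC9 libraries for 5 genes (11.9%) and below for 4 (9.52%), where the shares over all genes were 16.9% and 14.9%. DHS peaks numbered 48 in PC9R and 22 in PC9, a ratio of 2.18 (exact 95% interval 1.29 to 3.80), and H3K4me2 peaks 357 and 336, a ratio of 1.06 (0.913 to 1.24). By window the DHS peaks were 11 and 2 at 20 to 25 Mb, 9 and 2 at 25 to 30 Mb, and 28 and 18 at 30 to 35 Mb.

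CDKN2A, which encodes inhibitors of the cyclin-dependent kinases and of MDM2, was transcribed in both lines. It had 65.2 and 18.7 CPM in PC9R and 86.6 and 16.6 CPM in PC9, so the spread within a line exceeded the difference between lines. CDKN2A has 4 accessions and overlaps an antisense gene, so these values are uncertain. CDKN2B had 25 and 0 counts in PC9R and 17 and 1 counts in PC9. MTAP, the methionine salvage enzyme next to CDKN2A, had 51.6 and 122 CPM in PC9R and 103 and 204 CPM in PC9, which overlapped (log2 fold change -0.82 ± 0.65, edgeR adjusted p = 0.999).

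MIR31HG, the host gene of a microRNA, had 22.7 and 45.0 CPM in PC9R, against 76.05 and 112 CPM in PC9, and the lines did not overlap (-1.47 ± 0.61, edgeR adjusted p = 0.644). The MIR31HG gene held 4 H3K4me2 peaks in PC9R and 10 in PC9. The interferon gene IFNE lies within its span and had 31 and 19 counts in PC9R and 37 and 21 in PC9. It was the only 1 of 17 type I interferon genes of the cluster with at least 10 counts. In the 5 Mb window that holds these genes, H3K4me2 peaks were fewer in PC9R, 120 against 143, where chromosome 9 as a whole had more.

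Flanking genes differed in direction. FOCAD, a focal adhesion protein gene, had 40.1 and 97.5 CPM in PC9R and 78.8 and 138 CPM in PC9. MLLT3, a subunit gene of the super elongation complex, had 64.2 and 61.9 CPM in PC9R and 48.0 and 85.2 CPM in PC9, and KLHL9, a ubiquitin ligase adaptor gene, had 75.8 and 104 CPM in PC9R and 59.8 and 111.5 CPM in PC9. All 3 overlapped between lines. HACD4, an enzyme gene of fatty acid elongation, had 20.9 and 18.1 CPM in PC9R and 8.03 and 11.4 CPM in PC9, without overlap. DMRTA1 had 116 and 82 counts in PC9R and 57 and 56 in PC9. At the CDKN2A start an H3K4me2 peak of 1173 bp covered the start in PC9R, while PC9 peaks of 1941 bp upstream and 2261 bp downstream flanked it. Within 1 kb of it 2 DHS peaks stood in PC9R and none in PC9.

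**Figure D5:**
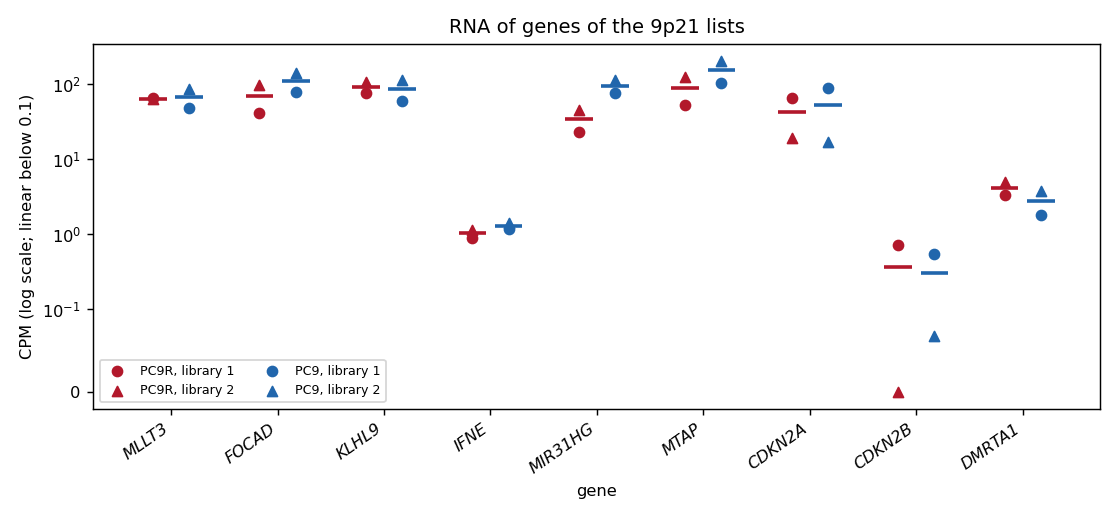
RNA level (CPM, log axis, linear below 0.1) of the 9 genes of the 9p21 lists with at least 10 counts, in chromosomal order, with PC9R in red, PC9 in blue, circles for the first and triangles for the second library, and bars for means. Of the 9 genes, only MIR31HG and IFNE have no overlap between the lines, with both lower in PC9R.

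Lists of chromosome 9 genes by function are given by counts and medians, beside a median of -0.01 over all tested genes. The 10 developmental signalling genes had the highest median of any list, 1.24, and 6 of them had PC9R libraries wholly above those of PC9. The share without overlap was 16.9% over all genes and 41.5% in the stretch from 70 to 120 Mb, where all but 1 of these genes lie. The 6 include LPAR1, a lysophosphatidic acid receptor gene, with 101 and 39 counts in PC9R and 18 and 11 in PC9, and GAS1, a Hedgehog coreceptor gene, with 114 and 56 counts in PC9R and 18 and 9 in PC9. NINJ1, a gene of plasma membrane rupture, had 489 and 128 CPM in PC9R and 157 and 43.7 CPM in PC9, which overlapped. Of the 10 genes 7 were above 0, and NOTCH1, which lies outside the stretch, had 3975 and 651 counts in PC9R and 4258 and 537 in PC9. None of the 10 passed the test.

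The 15 tested actin, adhesion and matrix genes had a median of 0.10, with 8 above 0. Of these 15 genes 2 passed the test, TNC and TPM2, both lower in PC9R. Both PC9R libraries were above both PC9 libraries for 3 of the 15 and below for 4, where the shares over all genes were 16.9% and 14.9%. SVEP1 was among the lower genes, and RECK had the highest log2 fold change of the list. RECK, an inhibitor gene of matrix metalloproteinases, had 100 and 86 counts in PC9R and 13 and 5 in PC9, a log2 fold change of 3.39 ± 0.76 (edgeR adjusted p = 0.143). The 23 metabolic enzyme genes had a median of 0.17, with ALDH1A1 the highest and CA9 the lowest, and none passed. The 10 lysosome and protease genes had a median of 0.54, with 6 above 0. UGCG, the glucosylceramide synthase gene, had 69.5 and 128 CPM in PC9R and 30.1 and 82.4 CPM in PC9, which overlapped, as did GBA2, its counterpart in glucosylceramide breakdown, with 64.6 and 50.2 CPM in PC9R and 80.4 and 56.9 CPM in PC9.

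The 6 tested inflammation and secreted genes had a median of 0.87. LCN2, which encodes the iron-carrier binding protein lipocalin, had 919 and 331 CPM in PC9R and 414 and 156 CPM in PC9, which overlapped. PTGES, the prostaglandin E synthase gene, had 662 and 519 CPM in PC9R and 339 and 362 CPM in PC9, which did not (0.75 ± 0.48, edgeR adjusted p = 0.947). C5, a complement gene, had 623 and 554 counts in PC9R and 253 and 263 in PC9. The 18 cancer kinase and tumour suppressor genes had a median of 0.09, with VCP at 808 and 831 CPM in PC9R and 1008 and 876 CPM in PC9. The 15 chromatin and transcription factor genes had a median of 0.16, with RXRA at 803 and 330.2 CPM in PC9R and 528 and 235.5 CPM in PC9. The 14 genes of 9p24 had a median of 0.05, and SLC1A1, a glutamate transporter gene, had 49.5 and 63.5 CPM in PC9R and 37.8 and 50.3 CPM in PC9. None of these 4 lists held a called gene. The 8 genes of the 9p21 cell cycle list had a median of -0.19.

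The 91 chromosome 9 genes with at least 10 counts that were not tested had 10 to 52 counts over all libraries, with a median of 19. Of these 30 lay in the stretch from 70 to 120 Mb. Another 12 genes that RefSeq places on chromosome 9 had at least 10 counts but no GRCh37 position in the annotation used, and were not placed in a window.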

How the data were processed

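Samples were grouped by the line and assay in their titles. The submitters' processing notes list TopHat, HTSeq, DESeq, MACS2 and hg19, with no version or role for any of them. The sources used here do not give the peak threshold or control library. Each deposited RNA file gives whole-number counts by RefSeq accession, and each deposited peak list a score for every peak, on the authors' own scale.

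Of 42811 accessions, 41556 were matched to a RefSeq gene name and summed by gene. GENCODE 44, lifted to GRCh37, gave each gene's start. The test over all genes was the two-sided quasi-likelihood test of edgeR 4.0.16 under R 4.3.3, after TMM scaling and filterByExpr, called at a Benjamini-Hochberg adjusted p under 0.05. Fold changes are log2 of PC9R over PC9, and CPM use the TMM library sizes. Within-pair differences used a pseudocount of 0.5 CPM. Peaks were placed by their centre, and bedtools 2.31.1 counted any shared base as overlap. Window ratios needed at least 10 peaks. Intervals and floors cover counting error only.

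Named genes were the called genes, the departing genes, the 9p21 list members, and up to 3 genes by mean CPM in each other list and each higher or lower window. The members, lists and rules were chosen with earlier results of these data known. FUBP3, PRRC2B, HACD4, RECK, GAS1, LPAR1, NOTCH1 and the genes of the last section were chosen after their values were seen. Scripts were checked on simulated data. Alternatives were RLE and upper quartile scaling, other filters, a replicate block, DESeq2 1.42.0, limma-voom (limma 3.58.1), genes with 1 accession, leaving out each RNA library, other windows, and other peak subsets and overlaps.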

Additional observations from a re-analysis of the deposited data

How the results depend on the processing

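The number of chromosome 9 genes called was 3 in the analysis reported. It was 5 with RLE scaling, 0 with upper quartile scaling (41 at an unadjusted p under 0.05), 8 without a filter, 10 with the stricter filter, 21 with DESeq2, 8 with limma-voom, 4 over genes with 1 accession, and 7 to 13 on leaving out 1 library. Leaving out 1 library leaves a line with 1 sample, which is assumed to vary like the other line. The number of higher windows stayed within 8 to 14 when 1 library was left out and at 9 to 11 in the other fits. It was 10 with windows shifted by 2.5 Mb and 5 with 10 Mb windows, which are fewer by construction. The count of lower windows was 3 without a filter, 0 with 10 Mb windows, 0 with the replicate block and 0 to 3 on leaving out 1 library. The median of the 70 to 120 Mb stretch above that of all tested genes was 0.57 and ranged from 0.32 to 0.82 when 1 library was left out.

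The libraries of both lines share a title ending, and the deviations of same-numbered libraries from their line's mean correlated at 0.819. No label names a shared batch, so whether the libraries are paired is not known, and the analysis reported did not pair them. Genes shifted the same way within both pairs, such as SMC5, NINJ1 and LCN2, can thus overlap between the lines and miss the threshold. With the replicate block 108 of the 481 chromosome 9 genes tested were called. This share was close to that over all genes, 2631 of 12660 (20.8%). Of the 108 genes 91 were higher and 17 lower, and 54 of the higher ones were among the 164 tested from 70 to 120 Mb. The matching split by direction over all genes was not counted. All 8 departing genes not called in the analysis reported were called with the block (adjusted p of 4.01e-05 for ALDH1A1 to 0.00509 for PAPPA), and the lower window at 20 Mb was not met.

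Shares of peaks found in both lines depended on the rule. DHS sharing was 7.11% of PC9R and 50.3% of PC9 peaks. It was 3.88% and 27.2% with a reciprocal overlap of 50%, 13.4% and 31.2% with equal numbers of peaks, and 44% of PC9 peaks with the higher-scored 50% of each list. H3K4me2 sharing was 55.8% of PC9R and 73.1% of PC9 peaks. It was 27.5% and 41.7% with the reciprocal overlap, 59.8% and 79.5% with the higher-scored 50%, and 67.0% and 66.4% with equal numbers. The ratio of H3K4me2 peak numbers on the chromosome, 1.52, was 0.930 by covered length. Of 785 values of 66 named genes under the alternatives, 51 gained a call, 3 lost one (UNC13B, TNC and TPM2 under upper quartile scaling) and 42 changed sign, all of genes not called. With 1 DHS and 1 H3K4me2 library per line, no peak difference has a replicate check.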

Other observations

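Several genes differed by at least 2 on the log2 scale from their window but missed the limit of 10 CPM in the higher line, and were chosen here after their values were seen. ZNF618, a zinc finger gene at 115 to 120 Mb, had 202 and 149 counts in PC9R and 12 and 4 in PC9 (log2 fold change 4.45 ± 0.75, edgeR adjusted p = 0.0638). PIP5K1B, a phosphoinositide kinase gene at 70 to 75 Mb, had 73 and 25 counts in PC9R and 2 in each PC9 library. FBP2, the fructose-bisphosphatase gene known from muscle, had 291 and 60 counts in PC9R and 49 and 7 in PC9. Outside the stretch, LAMC3, a laminin chain gene at 130 to 135 Mb, had 158 and 21 counts in PC9R and 7 and 1 in PC9. BNC2, a zinc finger gene at 15 to 20 Mb, had 3 and 1 counts in PC9R and 23 and 18 in PC9. In each of these 5 genes the lines did not overlap, and none passed the test.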
